A study of Homo sapiens with 12 samples.

Results

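The comparison described here asks whether MDA-MB-231 cells that carry the S134A-GR knock-in answered TGFβ1 differently from cells with wt-GR. It is the response of S134A-GR cells (TGFβ1 minus vehicle) minus the response of wt-GR cells, gene by gene, on the log2 scale. Its members are the 13281 genes with a mean of at least 50 normalized counts over the 12 libraries, out of 19907 gene symbols listed and 18579 tested. MDA-MB-231 is an established human triple-negative breast cancer (TNBC) line that expresses the glucocorticoid receptor (GR). The comparison used 4 groups of 3 libraries, wt-GR vehicle, wt-GR TGFβ1, S134A-GR vehicle and S134A-GR TGFβ1. All cells were kept for 18 h in medium with 1% DCC (charcoal-stripped serum) and no added glucocorticoid, and were then treated for 6 h with TGFβ1 (10 ng/mL) or its vehicle. S134A-GR was clone #1, in which CRISPR editing changed Ser134 of both NR3C1 alleles to alanine, and wt-GR was a clone recovered from the same transfection that had kept the wild-type codon. Each genotype was thus 1 clone, so genotype and clone cannot be told apart in any value below. No source used here states that the 3 libraries of a group came from separate cultures, so p-values measure the spread between these libraries.

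TGFβ1 binds a pair of serine/threonine kinase receptors that phosphorylate SMAD2 and SMAD3, which join SMAD4 and move to the nucleus to switch target genes on or off together with partners such as AP-1. The same receptors also feed into p38 MAPK through TAK1 and related kinases. The pathway raises its own inhibitors (SMAD7, SKIL, PMEPA1), and in breast cancer cells it is known for driving matrix production, epithelial-mesenchymal transition and invasion. GR is a ligand-activated transcription factor, and Ser134 is a site that stress-activated p38 MAPK phosphorylates without hormone.

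The files checked against their labels as follows. Recovered totals ranged from 56362036 to 129832227 reads per library, and a floor of 3 reads equalled 2.15 to 4.89 normalized counts, counting error only. NR3C1 was present at 8336 to 12729 normalized counts. Its means under vehicle and TGFβ1 were 11771 and 10775 in wt-GR cells and lower, at 8815 and 8692, in S134A-GR cells. No difference in the response of NR3C1 was called (difference 0.10, 95% interval −0.10 to 0.30, limma adjusted p = 0.774). The codon change itself cannot be seen in counts per gene. All 8 MDA-MB-231 markers were abundant. Of the markers expected to be low in a triple-negative line, ESR1 stayed at 7.32 or less, but ERBB2 stood at 7229 to 10589 normalized counts. The summed luminal markers were 7367 to 7881 in S134A-GR libraries and 15478 to 18100 in wt-GR libraries under either treatment, a baseline difference whose part in the results was not tested. Single markers did not all go this way. Under vehicle XBP1 (4964 against 8455) and KRT19 (837 against 4158) were lower in S134A-GR than in wt-GR cells. GATA3 (1093 against 808) and FOXA1 (289 against 229) were higher. Of the 5 fibroblast markers only PDGFRB exceeded 31.1 normalized counts in any library.

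At an FDR under 0.05 by limma, 74 of the 13281 members differed in response. In 44 of them, 0.331% of the members, the difference was negative, meaning a smaller rise or a deeper fall in S134A-GR cells. In the other 30, 0.226%, it was positive, so 0.557% were called in either direction. Without adjustment, 765 members (5.76%) had p under 0.05 with a negative and 650 (4.89%) with a positive difference. Most differences were modest: 66 of the 74 were under 2-fold and the median absolute difference was 0.48, a 1.40-fold change in the response. The median difference over all members was 0.0013, and the 95% interval lay within 1.5-fold for 10873 members (81.9%), 29 of the called genes included. The response alone passed the test in both lines and in the same direction for 40 called genes, in wt-GR cells only for 23, in S134A-GR cells only for 5, and in opposite directions for 6. The count of calls was less stable than their direction. All 74 kept their sign under all 21 refits tried, DESeq2's Wald test on the recovered reads called all 74 within a total of 208, and edgeR's quasi-likelihood test called 70 within a total of 76. Leaving out 1 library left between 22 calls (without wt-GR TGFβ1 replicate 1) and 160 (without wt-GR vehicle replicate 3). INHBB, PDGFRB, PLAU, PMEPA1, WNT5B, JUNB, COL1A1, GRK5, TUBA4A, SNAI1, RND3, LEFTY1, LMCD1, DMBT1, CSF1, APCDD1L, MARCKSL1, CHST15, DKK1, IER5L and FST, 21 genes, were called under every refit. For other called genes the number of the 21 refits that called them stands beside their values.

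To see which functions responded less, equally or more, genes were taken as responding where the average of the lines' responses had an FDR under 0.05 and was at least 1.5-fold. The average is uncorrelated with the difference in this balanced design, so it favours neither line. There were 595 responding members, 254 raised (1.91% of members) and 341 lowered (2.57%). Of the 254 raised genes, 18 had a weaker and 3 a stronger response in S134A-GR cells, 99 were unresolved, meaning neither called nor bounded, and the others were equal within 1.5-fold. The rise of LEFTY1, FST, ABAT (9 refits) and KRT16 (8 refits), 4 of the 18, passed the test in wt-GR cells and not in S134A-GR cells. Of the 341 lowered genes, 9 had a weaker response (INHBB passed the test in wt-GR cells alone), 4 a stronger one, 155 were equal and 173 were unresolved. The raised genes had a median response of 0.97 in wt-GR and 0.84 in S134A-GR cells, and 177 of 254 (69.7%) had the smaller value in S134A-GR cells. The lowered genes had medians of 0.80 and 0.74 in size, with the smaller fall in S134A-GR cells for 195 of 341 (57.2%). The same share over all 5238 members whose average response passed the test was 54.7%. Genes are not independent replicates, so these shares are descriptions.

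**Figure D1:**
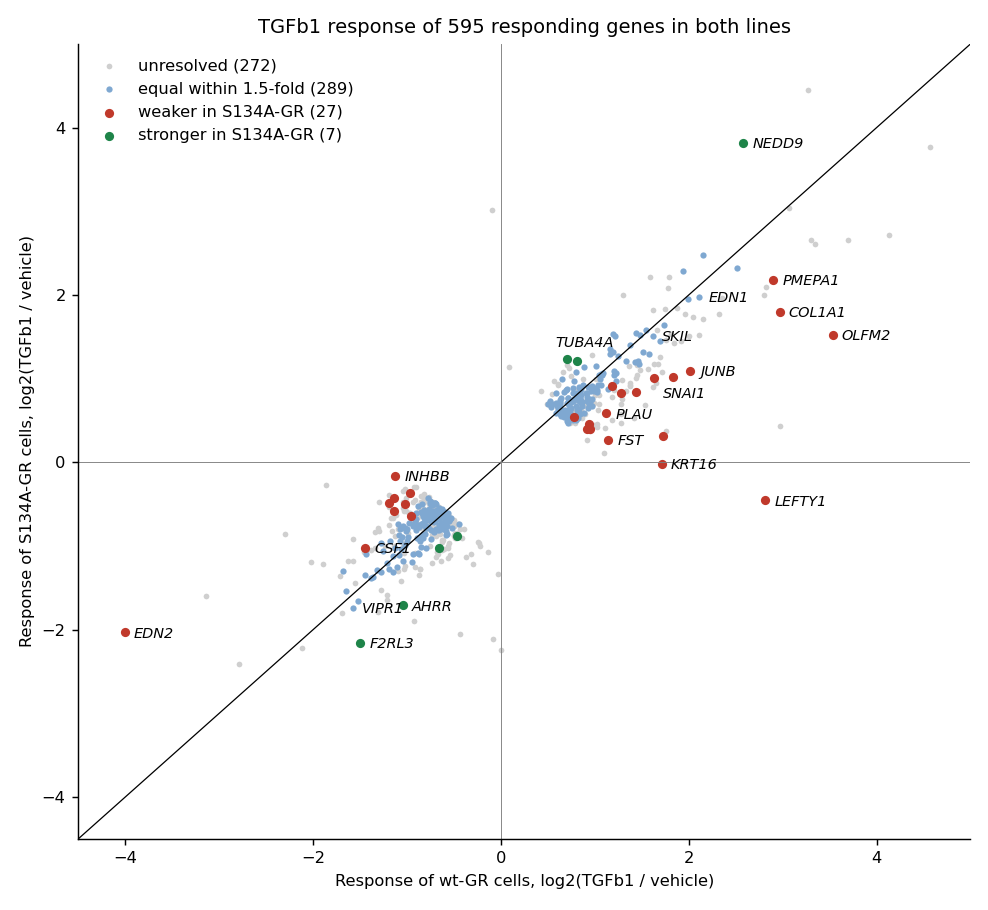
Each dot is 1 of the 595 responding genes, with the log2 response of wt-GR cells on the x axis, that of S134A-GR cells on the y axis and the line of equal response in black. The 27 genes weaker in S134A-GR cells (red) lie between the line and the x axis, or past that axis for LEFTY1 and KRT16; the 7 stronger ones (green) lie on the far side, and the 289 equal ones (blue) follow the line.

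The SMAD feedback genes split. PMEPA1, a membrane protein that sequesters SMAD2 and SMAD3, had 5093, 4588 and 4487 normalized counts in the wt-GR vehicle libraries and 36441, 35409 and 33922 under TGFβ1. In S134A-GR cells it went from 4369.7, 4528 and 4204 to 20685, 20344 and 18576. The lines overlapped under vehicle and were far apart under TGFβ1. The rise was 7.47-fold against 4.55-fold, a difference of −0.72 (standard error 0.076, adjusted p = 0.000909). LEFTY1, a secreted antagonist of nodal signaling, went from 45.6, 50.7 and 43.2 to 375, 307 and 321 in wt-GR cells and stayed near the read floor in S134A-GR cells, at 3.77, 10.1 and 5.35 and 5.71, 4.05 and 2.86. Its difference was −3.27 (adjusted p = 0.00717), a value that depends on the pseudocount, and its close paralog LEFTY2 can share its reads. SKIL, the co-repressor SnoN, instead rose from 1502, 1355 and 1291 to 4228, 4299 and 4218 in wt-GR and from 1325, 1367 and 1417 to 4047, 3819 and 3856 in S134A-GR cells. The treated S134A-GR libraries lay just below the treated wt-GR libraries, and the difference in response was −0.11 with a 95% interval of −0.28 to 0.055. SMAD7, the inhibitory SMAD, rose by 1.19 and 1.32 (interval of the difference −0.081 to 0.33). LDLRAD4, another SMAD-sequestering membrane protein, rose by 2.10 and 1.52 and was unresolved (adjusted p = 0.474). Over the 14 measured genes of this list, 2 were called negative (0.331% of all members were) and none positive, and 11 were within 1.5-fold, a share close to the 81.9% of all members. This list and those below were chosen with earlier results of these data known, so such counts are descriptions. The SMAD genes themselves showed no called difference, and 5 of 6 were within 1.5-fold.

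Among ligands, traps and receptors of the family, TGFB1 itself responded less. Its values went from 13275, 13394 and 15493 to 27249.7, 26773 and 26419 in wt-GR cells and from 11475, 10871 and 10471 to 14879, 15415 and 14697 in S134A-GR cells, a difference of −0.48 (standard error 0.075, adjusted p = 0.0126, called in 19 of the 21 refits). FST encodes follistatin, which binds and neutralizes activins. It rose in wt-GR cells from 489, 497 and 595 to 1099.8, 1148 and 1235, against 304, 279.8 and 322 to 340.5, 376 and 376 in S134A-GR cells (difference −0.87, adjusted p = 0.0121). INHBB, the activin βB subunit, fell in wt-GR cells from 1253, 1337 and 1296 to 585, 572 and 622. In S134A-GR cells it was already low under vehicle, at 429.8, 426 and 451, and stood at 378, 385 and 407 under TGFβ1. The difference of 0.97 (standard error 0.096) had the lowest p of all members (adjusted p = 0.000909). ENG, the co-receptor endoglin, rose by 0.78 and 0.54 (difference −0.24, 8 refits), and FURIN, the protease that cleaves the TGFβ1 precursor, by 1.18 and 0.92 (−0.27, 10 refits). Both were called although each interval of the difference stayed within 1.5-fold. FSTL3, a follistatin relative that also traps activins, rose equally, by 1.73 and 1.64 (interval −0.26 to 0.066). LTBP2 and LTBP3, latent TGFβ binding proteins, leaned in opposite directions without a call, LTBP2 at 1.20 and 1.53, LTBP3 at 1.72 and 1.08 (adjusted p = 0.0561). Of 20 measured ligand, trap and latency genes 3 were called, and of 13 receptors only ENG, where 0.557% of all members were called.

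Among transcription factors, JUNB and SNAI1 rose less in S134A-GR cells. JUNB, an AP-1 subunit, went from 2250.2, 2642 and 2883 to 10726, 10519 and 9968 in wt-GR cells and from 2670.3, 2925 and 2683 to 5643, 6233 and 5783 in S134A-GR cells. Vehicle levels overlapped between the lines, treated levels did not, and the rise was 4.03-fold against 2.13-fold (difference −0.92, standard error 0.10, adjusted p = 0.00164). SNAI1, the E-cadherin repressor Snail, went from 430.2, 410.1 and 449.6 to 1546, 1437 and 1632 and from 368, 364 and 368 to 792, 779 and 676. It rose 3.57-fold and 2.04-fold, a difference of −0.81 (adjusted p = 0.00717). HIC1, a transcriptional repressor, rose by 1.44 and 0.84 (difference −0.60, 10 refits), and LMCD1, a LIM-domain cofactor, by 0.86 and 0.30 (−0.56). IER5L, an immediate early gene relative, rose only in wt-GR cells at this FDR, by 0.75 against 0.12, and its vehicle level was higher in S134A-GR cells by 0.72. No other AP-1 gene was called. FOSL1, which encodes the AP-1 subunit FRA1, fell by 0.61 and 0.56 on the log2 scale and was equal within 1.5-fold. MAF and FOSB leaned the way of JUNB but were unresolved, at 1.41 and 0.53 and at 1.03 and 0.43. Of 14 AP-1 genes 1 was called, and of 12 EMT transcription factors 1, SNAI1, where 0.331% of all members had a called negative difference. BHLHE40 and CSRNP1, early-response factors, were equal, with responses of 1.16 and 1.35 and of 0.93 and 0.90.

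Promoters of 4 of these genes are shown, a pair that responded less (JUNB, FST) and a pair that was equal (SKIL and ANGPTL4, an angiopoietin-like lipase inhibitor). Each run is the 250 bases before the start in the RefSeq table for GRCh38.p14, all on the plus strand, in lower case, with matches to the SMAD box (CAGAC, read on both strands, so also GTCTG) in capitals. AP-1 sites (TGACTCA or TGAGTCA) and the GR core ACANNNTGT were also searched, with no match in these 4.
JUNB, chr19:12791236-12791485: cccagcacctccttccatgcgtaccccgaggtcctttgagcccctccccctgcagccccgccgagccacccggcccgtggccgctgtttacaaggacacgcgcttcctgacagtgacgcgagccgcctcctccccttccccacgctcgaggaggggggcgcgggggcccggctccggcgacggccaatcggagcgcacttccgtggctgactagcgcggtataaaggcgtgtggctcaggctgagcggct
FST, chr5:53480379-53480628: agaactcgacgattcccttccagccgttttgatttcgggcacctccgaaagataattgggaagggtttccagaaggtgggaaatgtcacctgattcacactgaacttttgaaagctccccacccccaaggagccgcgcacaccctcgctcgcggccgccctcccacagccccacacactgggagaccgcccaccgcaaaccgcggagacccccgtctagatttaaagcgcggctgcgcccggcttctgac
SKIL, chr3:170357465-170357714: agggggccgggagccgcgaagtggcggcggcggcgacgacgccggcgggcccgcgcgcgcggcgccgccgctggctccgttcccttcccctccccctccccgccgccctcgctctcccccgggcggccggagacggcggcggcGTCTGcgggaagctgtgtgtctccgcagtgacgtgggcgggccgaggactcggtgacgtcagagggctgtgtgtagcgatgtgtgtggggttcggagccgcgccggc
ANGPTL4, chr19:8363905-8364154: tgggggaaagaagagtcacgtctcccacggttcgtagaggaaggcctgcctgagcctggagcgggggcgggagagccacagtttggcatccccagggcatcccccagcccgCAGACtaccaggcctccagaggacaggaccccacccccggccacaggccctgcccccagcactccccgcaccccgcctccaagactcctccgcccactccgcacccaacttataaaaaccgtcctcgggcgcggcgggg
The SMAD box was found in SKIL and in ANGPTL4 and not in JUNB or FST. The share of promoters that held each motif was counted over larger sets. A start was listed for 9879 members, with 14473 promoters in all, of which 36.4% held the SMAD box, 3.17% an AP-1 site and 2.63% the GR core. The shares were 35.8%, 1.89% and 5.66% in the 53 promoters of 30 genes with a called negative difference, 40.5%, 0% and 7.14% in the 42 promoters of 26 genes with a positive one, and 40.0%, 5.88% and 5.29% in the 170 promoters of 102 raised genes with an equal response. In the 21 promoters of 9 raised genes with a weaker response they were 33.3%, 0% and 9.52%. The GR core shares rest on 3, 3, 9 and 2 promoters. These are letter matches in a short window, not sites.

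**Figure D2:**
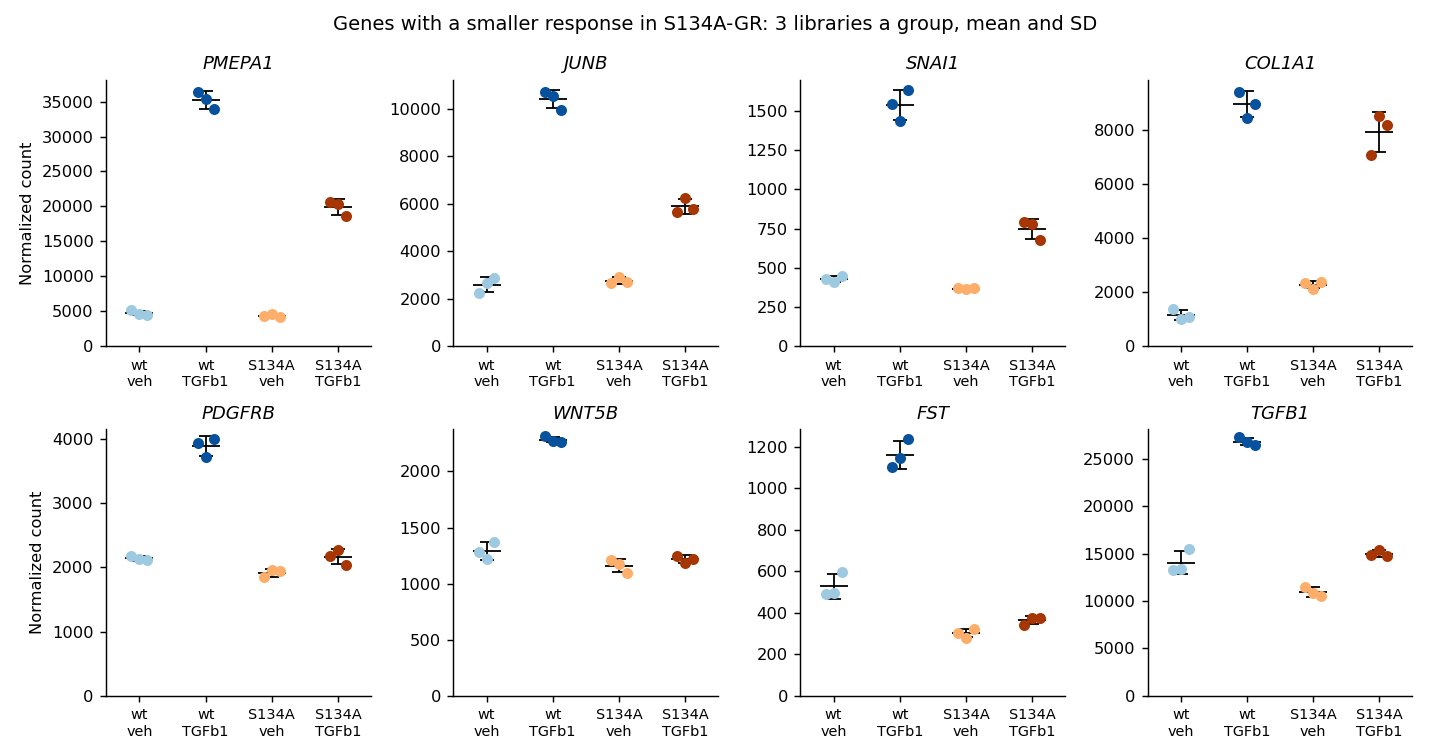
Normalized counts per library for 8 genes whose response was smaller in S134A-GR cells, 3 libraries a group as dots, with the group mean and SD in black. The treated wt-GR libraries stand above the treated S134A-GR libraries in every panel except COL1A1, where the ranges meet and the vehicle groups differ instead.

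Matrix and protease genes held both weaker and equal responses, sometimes in neighbouring members of a family. COL1A1, a chain of fibrillar collagen I, went from 1380.1, 1015 and 1063 to 9418, 8448 and 8968 in wt-GR cells and from 2331, 2112 and 2369.7 to 7081, 8526 and 8163 in S134A-GR cells. The treated groups overlapped, and the lines differed under vehicle by 0.99, so the difference in response of −1.17 (adjusted p = 0.00265) came with a higher starting level. COL4A1, a basement membrane collagen, rose from 10741, 10318 and 8967 to 39109, 39567 and 40486 and from 4492, 4612 and 4743 to 18346, 17935 and 17312. It started and ended lower in S134A-GR cells, and its responses differed by −0.041, with an interval of −0.20 to 0.12. COL6A3, a chain of microfibrillar collagen VI, rose by 1.30 and 2.00, and COL7A1, of anchoring fibrils, by 1.76 and 1.47, both unresolved and leaning opposite ways. Of 19 measured collagen chains 1 was called (0.557% of all members) and 11 were within 1.5-fold (81.9% of all members). PLAU, the urokinase that activates plasminogen, went from 65076, 67289.7 and 70865 to 148975, 142955 and 150671 in wt-GR cells. In S134A-GR cells it started higher, at 85103, 87259 and 87604, and ended lower, at 126400.5, 135565 and 128007. The difference was −0.54 (standard error 0.056, adjusted p = 0.000909). OLFM2, an olfactomedin-domain glycoprotein, went from 8.15, 13.7 and 14.7 to 143, 146 and 154 and from 33.0, 26.4 and 37.4 to 99.9, 96.2 and 85.1 (−2.01, 15 refits). Its wt-GR vehicle values were not far above the read floor, and its difference ranged from −2.16 to −1.36 over the refits. S134A-GR minus wt-GR was 1.36 under vehicle and −0.65 under TGFβ1, so unequal starting levels entered this value too. SDC1, the proteoglycan syndecan-1, rose in wt-GR cells by 0.31, against 0.068 in S134A-GR cells (−0.24, 13 refits). THBS1, TGFBI and CTGF, matricellular proteins, were equal, THBS1 at 1.08 and 1.05, TGFBI at 0.86 and 0.72, CTGF at 0.49 and 0.57. Of integrins, ITGB3 rose equally (1.16 and 1.29), while ITGB4, the hemidesmosome subunit, moved in opposite directions, 0.26 in wt-GR and −0.36 in S134A-GR cells (difference −0.62, 15 refits). KRT81, a hair-type keratin with close paralogs, rose by 1.28 and 0.83 (−0.45, 18 refits), and KRT16 by 1.72 in wt-GR cells against −0.020 (8 refits), whereas KRT7 was equal at 1.04 and 0.93.

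Growth factor and Wnt genes held differences in both directions. PDGFRB, the PDGF-B receptor, went from 2182, 2135 and 2111 to 3940.4, 3717 and 4006 in wt-GR cells and from 1844, 1952 and 1939 to 2179, 2277 and 2041 in S134A-GR cells. A gain of 1.81-fold faced one of 1.13-fold (difference −0.68, adjusted p = 0.000909). Its ligand PDGFB rose by 2.82 and 2.09, a difference of −0.73 that missed the threshold (adjusted p = 0.0577, called in 6 refits). WNT5B, a noncanonical Wnt ligand, went from 1281, 1218 and 1375 to 2314, 2275 and 2265 in wt-GR cells and showed 1211, 1175 and 1098 and 1249.7, 1185 and 1222 in S134A-GR cells, where the treatments overlapped. The difference was −0.75 (standard error 0.081, adjusted p = 0.000909). WNT7B fell in both lines and further in S134A-GR cells (−0.65 and −1.02, 12 refits). DKK1, a secreted Wnt antagonist, rose more in S134A-GR cells, from 5363, 5244 and 5566 to 7514, 7434 and 7876, against 5261, 5147 and 5336 to 5890.1, 5826 and 5747 (difference 0.35, adjusted p = 0.0093). LGR4, a receptor for R-spondins, fell in wt-GR cells by 0.44 on the log2 scale and stood at 0.088 in S134A-GR cells (0.53, 20 refits). APCDD1L, a relative of a Wnt inhibitor, rose by 0.95 and 0.39 (−0.55). FGF1 rose at this FDR in wt-GR cells only (0.58 against −0.0051, 13 refits), and FGF5 moved in opposite directions (−0.18 and 0.27, 18 refits). EDN1, the vasoconstrictor endothelin-1, rose from 1183, 1334 and 1415 to 5705, 5521 and 5716 and from 1338, 1274 and 1372 to 4839, 5385 and 5525, equal within 1.5-fold (−0.33 to 0.068). EDN2, endothelin-2, fell from 184, 159.6 and 185 to 12.2, 7.32 and 11.2 in wt-GR and from 46.2, 30.4 and 41.0 to 8.56, 7.09 and 10.7 in S134A-GR cells. Treated values were near the floor in both lines and overlapped, and the difference of 1.97 (7 refits) came with unequal vehicle levels. ANGPTL4 (1.94 and 2.29) and the VEGF and semaphorin co-receptor NRP2 (1.70 and 1.45) were equal within 1.5-fold. In this list of 35 measured genes, 2 were called negative and 2 positive, and in the Wnt list of 34, 2 and 1, beside 0.331% and 0.226% of all members.

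Several genes that TGFβ1 lowered fell less in S134A-GR cells. CSF1, the macrophage growth factor, went from 8124, 8068 and 8067 to 3034, 2842 and 3051 in wt-GR cells and from 4635, 4518 and 4682 to 2177, 2261 and 2394 in S134A-GR cells. The treated lines lay closer together than the vehicle lines, and the difference was 0.42 (standard error 0.061, adjusted p = 0.0087). DMBT1, a scavenger receptor family glycoprotein, went from 1957, 2028 and 1892 to 839, 945 and 887 and from 4767, 4682 and 4881 to 3155, 3394 and 3038 (difference 0.56, adjusted p = 0.00717). TIMP3, a metalloproteinase inhibitor, fell by 0.96 and 0.64 on the log2 scale (0.32, 10 refits), and PLXNA1, a semaphorin receptor, by 0.63 and 0.27 (0.35, 12 refits). CHST15, a chondroitin sulfotransferase, fell from 12090.1, 11652 and 11381 to 7782, 8069.9 and 7724 in wt-GR cells and from 7826, 8261 and 8142 to 7298, 7061 and 6743 in S134A-GR cells (0.38, adjusted p = 0.0093). A smaller set fell further in S134A-GR cells. GRK5, a kinase of activated G protein-coupled receptors, went from 2868, 3182 and 2899.8 to 2654, 2338 and 2377 in wt-GR and from 5687, 6025 and 5726 to 3213, 3255 and 3041 in S134A-GR cells. It began about 2-fold higher there (0.96 on the log2 scale) and stayed higher under TGFβ1, with no overlap (0.37; difference in response −0.59, adjusted p = 0.00717). AHRR, the repressor of the aryl hydrocarbon receptor, fell by 1.04 and 1.71 (−0.67, 11 refits), F2RL3, a thrombin receptor, to 857 from 2426 in wt-GR and to 228 from 1022 normalized counts in S134A-GR cells on average (−0.66, 11 refits), and RIN1, a RAS effector, by 0.47 and 0.88 (−0.42, 10 refits). VIPR1, a peptide hormone receptor, and CIITA, the regulator of MHC class II genes, fell equally within 1.5-fold, with intervals of −0.37 to 0.049 and −0.37 to 0.096.

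**Figure D3:**
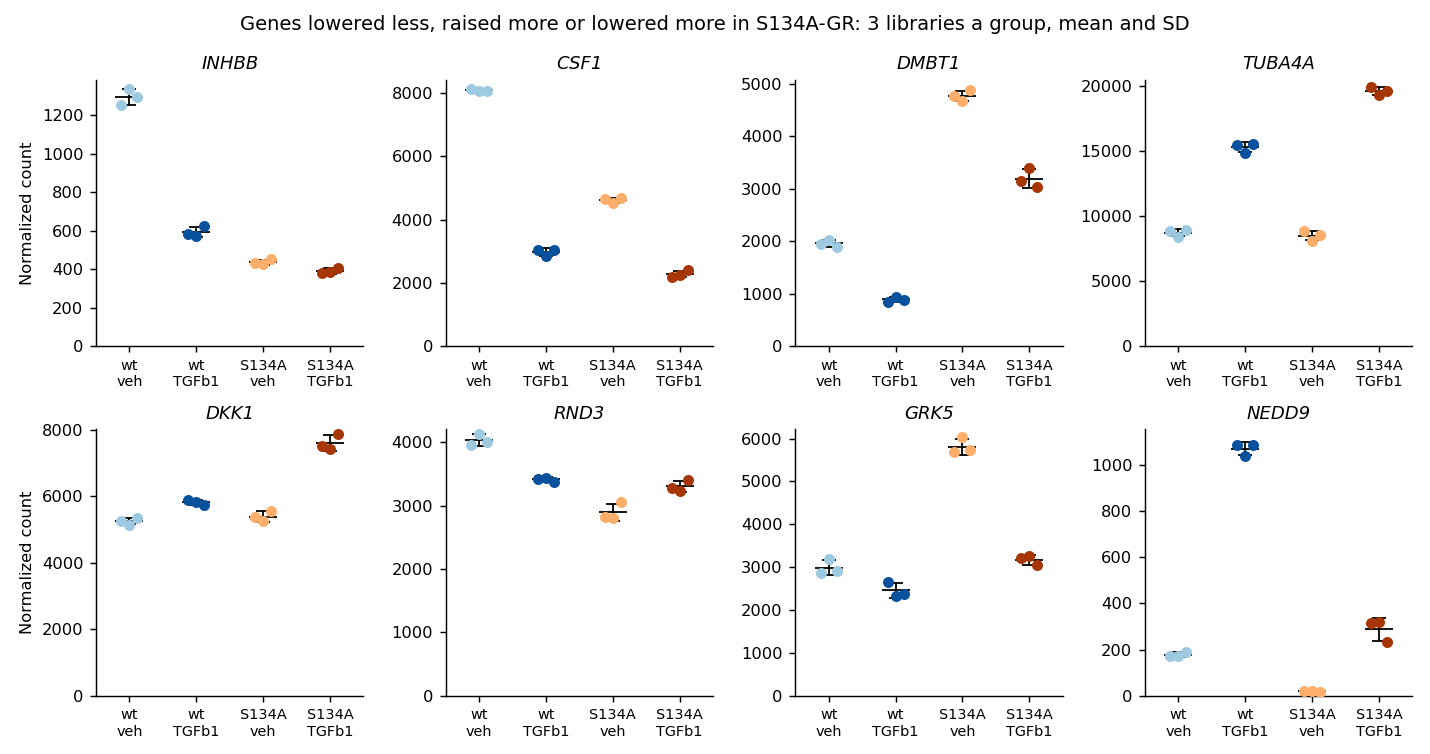
Normalized counts per library for 8 genes that, on the log2 scale, fell less (INHBB, CSF1, DMBT1), rose more (TUBA4A, DKK1, NEDD9), changed direction (RND3) or fell more (GRK5) in S134A-GR cells, 3 libraries a group with mean and SD. In the normalized counts drawn here NEDD9 gained less and DMBT1 lost more in S134A-GR cells. TUBA4A and DKK1 differ between the lines only under TGFβ1, RND3 differs only under vehicle, and INHBB and GRK5 differ under both treatments, by more under vehicle.

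Cytoskeletal and adhesion genes held stronger responses as well as weaker ones. TUBA4A, an alpha-tubulin, went from 8805, 8392 and 8909 to 15423, 14814 and 15522 in wt-GR cells and from 8801, 8101 and 8567 to 19869, 19309 and 19578 in S134A-GR cells. Vehicle levels overlapped and the rise was 1.75-fold against 2.31-fold (difference 0.40, standard error 0.054, adjusted p = 0.00717). RND3, an atypical small GTPase, fell from 3961, 4131 and 4005 to 3415, 3440.3 and 3377 in wt-GR cells and rose from 2825, 2805 and 3051 to 3278, 3232 and 3396 in S134A-GR cells. The treated groups overlapped and the difference was 0.43 (adjusted p = 0.00717). NEDD9, a focal adhesion scaffold, rose by 2.58 and 3.82 (1.24, 18 refits), TNS4, a tensin, stood at −0.11 in wt-GR and rose by 0.93 in S134A-GR cells (18 refits), and AFAP1L2, an adaptor of SRC signaling, rose by 0.71 and 1.23 (13 refits). These genes started far lower in S134A-GR cells. Vehicle means were 19.3 against 178 in wt-GR cells for NEDD9, 200 against 4976 for TNS4 and 1281 against 5139 for AFAP1L2. Treated TNS4 still stood at 381 against 4608. The NEDD9 difference was 0.61 in its lowest refit. MARCKSL1, an actin-binding substrate of protein kinase C, fell from 20426, 21259 and 21801 to 15539.5, 14563 and 14793 in wt-GR cells, against 10433, 10567 and 10215 to 9893, 9760.2 and 9131 (0.38, adjusted p = 0.0093). CDH11, a mesenchymal cadherin, rose only in S134A-GR cells at this FDR (−0.039 and 0.39, 12 refits), and AMOTL2, a YAP-binding angiomotin, fell less there (−0.50 and −0.19, 11 refits). The vehicle mean of CDH11 was 1012 in S134A-GR against 6655 in wt-GR cells. Negative differences in the same function were SRC, the tyrosine kinase (0.33 and 0.027, 16 refits), RHOF, a GTPase of filopodia (0.62 and 0.16, 10 refits), and LIMA1, an actin-bundling LIM protein that fell further (−0.22 and −0.46, 14 refits). The contractile gene TPM1 was equal (0.96 and 0.85), and CNN1 and TAGLN were unresolved (1.38 and 0.92, 1.37 and 0.93). Of 27 focal adhesion genes 3 were called and of 30 contractile genes 1, beside 0.557% of all members.

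For the equal class the interval bounds the difference. Equal genes with a large average response included UCN2, ANGPTL4, EDN1, COL4A1, FSTL3, VIPR1, RGCC, CIITA, NRP2, SKIL and PODXL. PODXL, a sialomucin, had the narrowest interval of these: it rose from 38230.5, 38507 and 38121 to 111590.5, 111419 and 112009 in wt-GR and from 29496, 29863 and 30343 to 89618, 90131 and 87978 in S134A-GR cells, and its responses of 1.54 and 1.58 differed by 0.033 (−0.050 to 0.12). UCN2, a corticotropin-releasing factor family peptide, rose by 2.15 and 2.48, and ANGPTL4 leaned the same way, so both intervals excluded 0 on the side of a larger response in S134A-GR cells (0.13 to 0.52 and 0.16 to 0.54) while staying within 1.5-fold. RGCC, a cell cycle regulator, had the widest (−0.32 to 0.54). Among the 173 genes with an average response of at least 2-fold, 62 were equal, 13 weaker, 4 stronger and 94 unresolved.

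**Figure D4:**
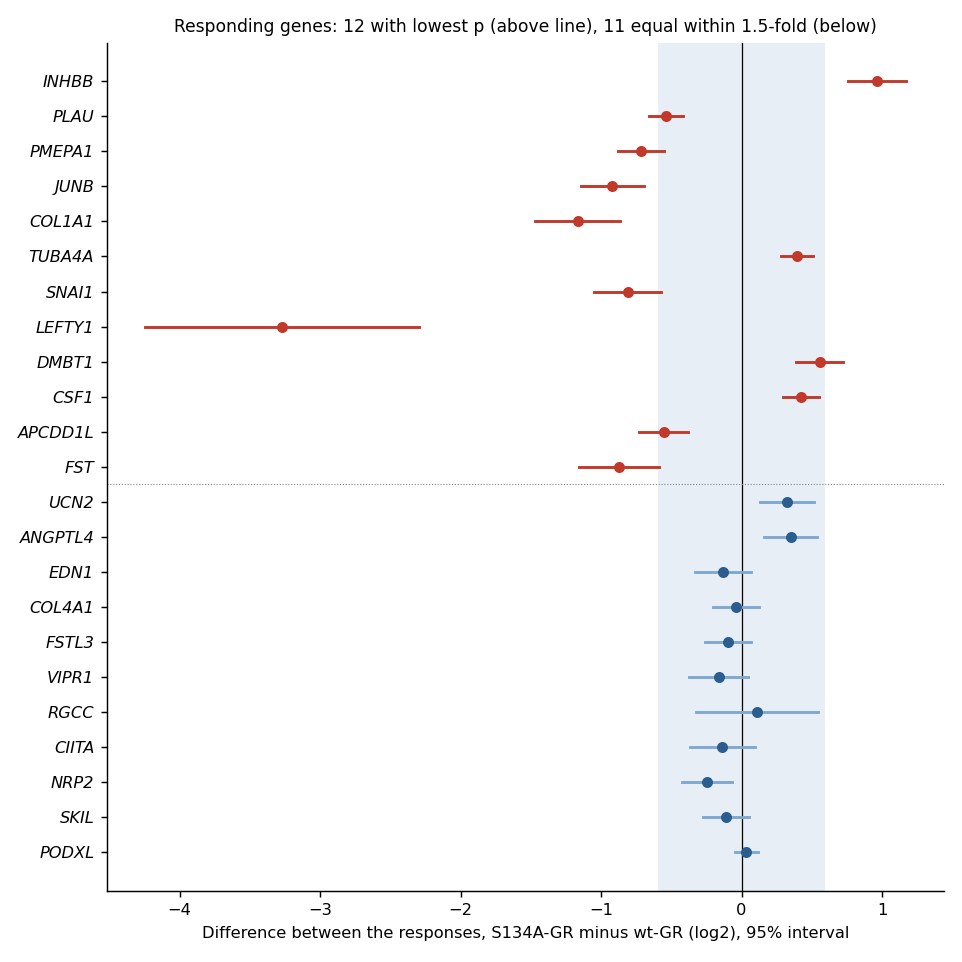
Difference between the responses (dot) with its 95% interval (line), on the log2 scale, for the 12 responding genes with the lowest p (above the dotted line, red) and 11 equal genes with a large response (below, blue); shading marks 1.5-fold either way. The blue intervals lie inside the shading, and LEFTY1 at −3.27 stands farthest from 0.

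The 50 gene lists were chosen with earlier results of these data known. A share of calls above the background can follow from that choice. The lists held 1249 members, of which 36 were called, in 23 lists, beside 74 of the 13281 members. In the remaining 27 lists no gene was called. At 0.557% of all members called, and 81.9% within 1.5-fold, a list of this size with no call is near the background. These lists included the p38 MAPK module (28 of 29 genes within 1.5-fold), ERK and JNK kinases (35 of 36), classical glucocorticoid targets (23 of 27), cell cycle and DNA replication (63 of 64), cholesterol and fatty acid synthesis (42 of 43), ATF4 and ER stress (47 of 47), respiratory chain (66 of 66) and proteasome (30 of 31). MAP3K5 (ASK1), a kinase at the top of the p38 cascade, fell by 0.44 and 0.38 on the log2 scale (interval of the difference −0.15 to 0.27), and MAP2K3, an upstream kinase of p38, by 0.39 and 0.48. Among glucocorticoid targets SGK1, a serum- and glucocorticoid-induced kinase, rose 2.33-fold and 2.09-fold (interval of the difference −0.36 to 0.051). YWHAZ, which encodes a 14-3-3 adaptor protein, gave −0.11 and −0.078 (−0.093 to 0.16). Interferon-stimulated genes showed a lean without calls: 21 of the 25 whose average response passed the test had the smaller response in S134A-GR cells, with a median of −0.10 along each gene's own direction of response, where all such members gave 54.7% and −0.012. Without regard to that direction the median difference over the 43 measured interferon-stimulated genes was 0.060. The lean was not particular to this list. Among other lists without calls, the respiratory chain had the smaller response in 18 of 21 such genes and ribosomal proteins in 35 of 47. Of 48 lists with at least 3 such genes, 33 had a median below 0 along the response. The 24-gene signature of the study was chosen on these same libraries for induction in wt-GR cells, so its direction is not independent evidence. Of its 12 members 5 were called (JUNB, SNAI1, C1orf106 in 10 refits, KRT16 and LEFTY1), all negative, with a median difference of −0.67. The other signature genes had a mean under 50 normalized counts and were no members, and their differences were all negative too. Among them LEFTY2 (−4.56, limma adjusted p = 0.0126) and STK19 (−6.36, limma adjusted p = 0.0256) also passed the test, at means of 30.8 and 42.0 normalized counts.

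**Figure D5:**
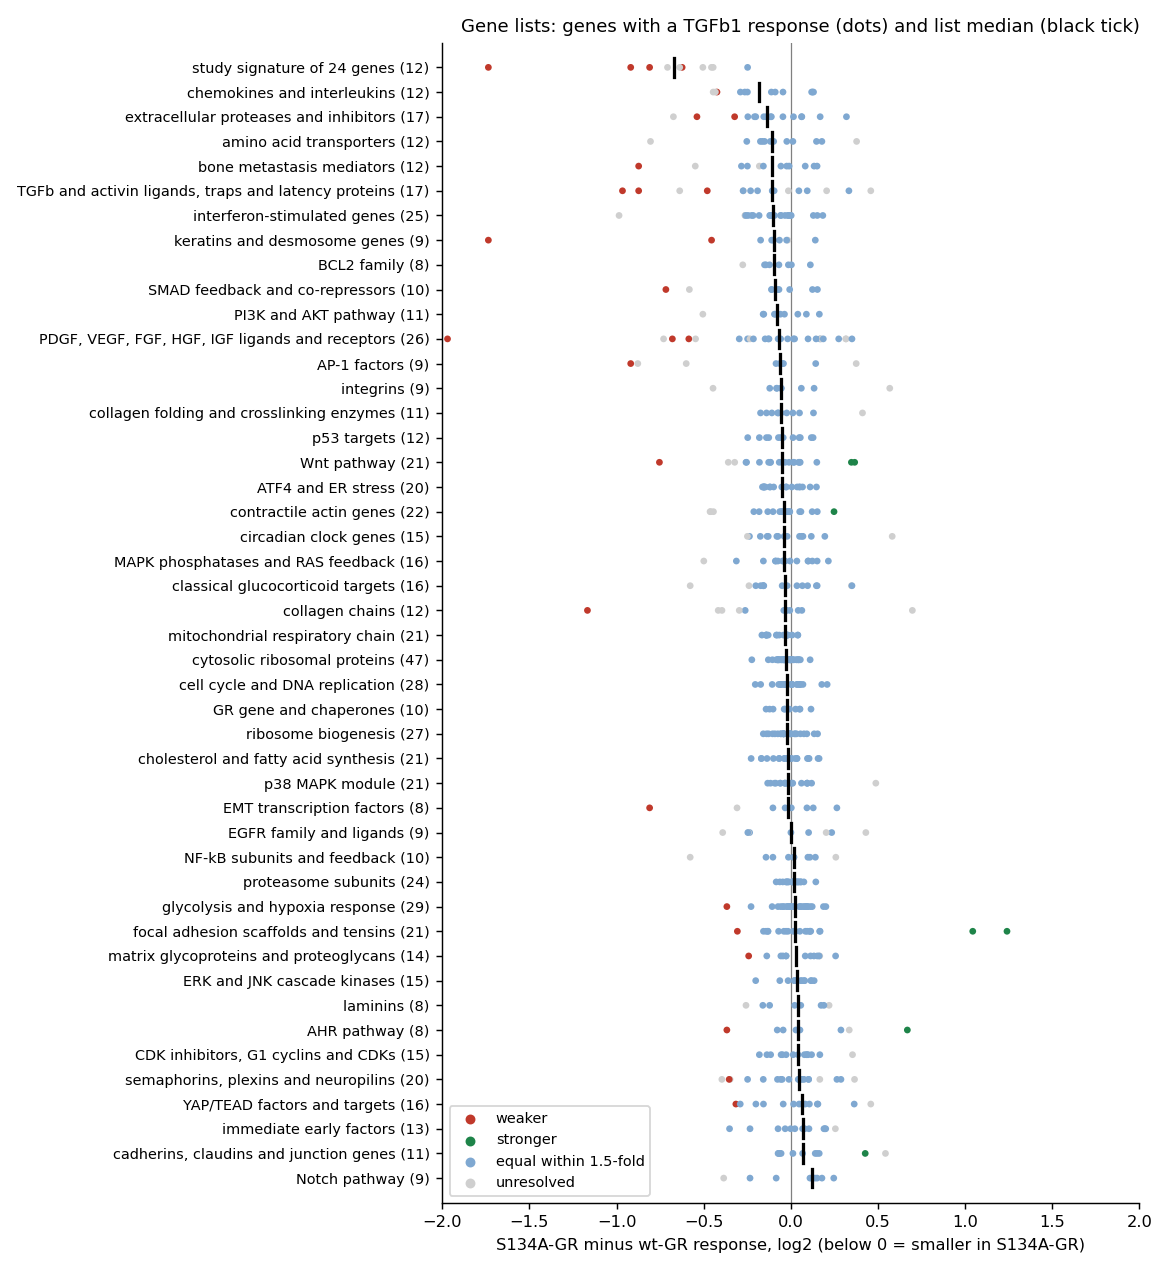
Rows are 46 lists with at least 8 genes whose average response passed the test (number in parentheses); each dot is a gene's difference along its own direction of response, S134A-GR minus wt-GR on the log2 scale, so that dots left of 0 responded less in S134A-GR cells, and the black tick is the list median. Apart from the 24-gene signature the medians run from −0.18 to 0.12. Where a list holds called genes (red and green), they lie among equal (blue) and unresolved (grey) ones, and 5 dots lie beyond the axis.

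A difference in response is also the change, from vehicle to TGFβ1, of the gap between the lines, so the called genes were sorted by where the lines differed at an FDR under 0.05. Of the 44 genes with a negative difference, the lines differed only under TGFβ1 in 9 (PMEPA1, JUNB and LMCD1 among them), only under vehicle in 8 (COL1A1, IER5L and KRT81), under both in the same direction in 20, and in opposite directions in 7 (PLAU and SDC1 among them). Of the 30 with a positive difference the corresponding counts were 4, 7, 17 and 2. TGFβ1 brought the lines closer for 22 of these 30 and for 19 of the 44. The same sorting was not counted over all members, so these counts have no background beside them. The line contrasts also share libraries with the difference that chose the genes. The counts therefore only describe the called genes. The log2 scale also matters for genes with unequal starting levels. In normalized counts 70 of the 74 kept the direction of the difference, but NEDD9 gained 891 in wt-GR and 269 in S134A-GR cells, AFAP1L2 gained 3241 and 1736, DMBT1 lost more and F2RL3 less in S134A-GR cells, the reverse of their log2 differences.

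Among the 272 unresolved responding genes were some with very large fitted differences whose libraries were far apart within a group. HRAS, a RAS GTPase, had 29.3, 112 and 139 and 247, 703 and 1327 in wt-GR cells and 116, 42.6 and 8.91 and 118, 29.4 and 33.6 in S134A-GR cells. Its fitted difference of −2.54 had an adjusted p of 0.546. Outside the responding genes RPS18, a small ribosomal subunit protein with many processed pseudogenes, had 345, 447 and 1690.0 and 2602, 12417 and 1022 in wt-GR and 35829, 29851 and 23541 and 398, 28998 and 3886 in S134A-GR cells, and the treatments overlapped in both lines. Other unresolved genes had replicates close to each other. MDFI, an inhibitor of MyoD family factors, rose by 1.65 and 0.94 (adjusted p = 0.0878), and PIK3IP1, a PI3K inhibitor, by 1.68 and 1.17 (0.103).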

How the data were processed

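RNA of 12 libraries of MDA-MB-231 cells was sequenced in paired-end mode. According to the study's methods, low-quality bases and adapters were removed (Trimmomatic), HISAT2 placed the reads on hg38 and featureCounts of the Subread package counted them. The submitters' processing notes name FastQC 0.11.7 and DESeq2 1.22.2. The deposited signal is normalized counts, which the authors scaled per library. All values (100%, tolerance 0.001) were whole multiples of a step, which gave back whole reads. The annotation and strand setting are not given in the sources used here, so reads of antisense or overlapping genes and close paralogs cannot be told apart.

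Genes with at least 10 reads over the 12 libraries were fitted with limma 3.58.1 (R 4.3.3) on log2(value + 1), with 4 group means and a trended empirical Bayes prior, and adjusted by the Benjamini-Hochberg method over 18579 genes. Fold changes are on that scale, which understates those of low genes. Standard errors, 95% intervals and p-values come from this fit. Alternatives were pseudocounts of 0.5 and 16, edgeR 4.0.16 and DESeq2 1.42.0 on recovered reads, TMM scaling, other filters, a robust prior, a replicate block, other margins and each library left out. The comparison in normalized counts was added after seeing the data. The fit was tested on simulated data, with 100 genes changed in response at each fold. It recovered 58% of the 1.5-fold and 79% of the 2-fold differences, and 4.86% of its calls were false.

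Named genes were the 12 with the lowest p in each direction, called genes of the lists, the 12 equal genes with the largest average response, up to 4 of each list by average response, the study's signature and 6 further genes; all other called genes were named after their values were seen. Some items that these rules cover are not reported here. Members, lists and tests were chosen with earlier results of these data known.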

Additional observations from a re-analysis of the deposited data

Results flagged for a closer look

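The 73 genes listed here are among those whose response to TGFβ1 differed between the lines by the test of the difference itself (limma, FDR under 0.05 over 18579 genes, 3 libraries a group). Values are the response of S134A-GR cells minus that of wt-GR cells on the log2 scale, followed by the number of the 21 refits that called the gene, and genes are grouped by whether the response of each line passed the same FDR. A response that passed in 1 line alone is not shown to be absent in the other. Groups of 3 libraries were not tested for single outlying samples.

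Among negative differences, the genes that rose in both lines and rose less in S134A-GR cells were PDGFRB (−0.68, 21), PLAU (−0.54, 21), PMEPA1 (−0.72, 21), JUNB (−0.92, 21), COL1A1 (−1.17, 21), SNAI1 (−0.81, 21), LMCD1 (−0.56, 21), APCDD1L (−0.55, 21), FRMD8 (−0.41, 19), TGFB1 (−0.48, 19), KRT81 (−0.45, 18), OLFM2 (−2.01, 15), C1orf106 (−0.62, 10), EPAS1 (−0.37, 13), FURIN (−0.27, 10), HIC1 (−0.60, 10) and ENG (−0.24, 8). Those whose rise passed in wt-GR cells and not in S134A-GR cells were WNT5B (−0.75, 21), LEFTY1 (−3.27, 21), IER5L (−0.62, 21), FST (−0.87, 21), FAM43A (−0.49, 18), SRC (−0.31, 16), SDC1 (−0.24, 13), RHOF (−0.47, 10), NXPH4 (−0.46, 11), FGF1 (−0.59, 13), PTPRU (−0.28, 10), LITAF (−0.31, 10), ABAT (−1.41, 9), NPC2 (−0.38, 8), KRT16 (−1.74, 8) and EPS8L2 (−0.32, 6). Those that rose in wt-GR and fell in S134A-GR cells were ITGB4 (−0.62, 15), IRF2BPL (−0.40, 12) and IRF2BP1 (−0.31, 9). Those that fell in both lines and further in S134A-GR cells were GRK5 (−0.59, 21), LIMA1 (−0.25, 14), WNT7B (−0.37, 12), F2RL3 (−0.66, 11), AHRR (−0.67, 11) and RIN1 (−0.42, 10), and the fall of SLC9A3R2 (−0.31, 10) passed in S134A-GR cells alone.

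Among positive differences, the genes that fell in both lines and fell less in S134A-GR cells were DMBT1 (0.56, 21), CSF1 (0.42, 21), CHST15 (0.38, 21), LINC00261 (0.71, 16), LGALSL (0.60, 13), PLXNA1 (0.35, 12), TIMP3 (0.32, 10), AMOTL2 (0.32, 11), EDN2 (1.97, 7), FAM20C (0.53, 9) and PARD6B (0.71, 7). Those whose fall passed in wt-GR cells and not in S134A-GR cells were INHBB (0.97, 21), MARCKSL1 (0.38, 21), LGR4 (0.53, 20), ATP1B1 (0.30, 16), STS (0.61, 12), UGCG (0.34, 14) and SNAPC1 (0.31, 12). Those that fell in wt-GR and rose in S134A-GR cells were RND3 (0.43, 21), NREP (0.44, 17) and FGF5 (0.45, 18). Those that rose in both lines and further in S134A-GR cells were TUBA4A (0.40, 21), DKK1 (0.35, 21), NEDD9 (1.24, 18), AFAP1L2 (0.53, 13) and TSPAN14 (0.24, 8), and the rise passed in S134A-GR cells alone for TNS4 (1.04, 18), CDH11 (0.43, 12), EEF1E1 (0.78, 9) and UBASH3B (0.41, 9).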

How the results depend on the processing

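Of the 7 summary counts and medians, 115 values under other settings stayed within 1.5 times the main count, or within the replicate spread of the median, and 45 moved, 35 of them with a library left out. DESeq2's Wald test on the recovered reads called 111 negative and 97 positive differences, with 54 weaker and 17 stronger responding genes. A 2-fold rule for responding left 13 weaker, 4 stronger and 62 equal genes, and a narrower margin for equality gave 117 and a 2-fold margin 452 equal genes. With 1 library left out, negative calls ranged from 14 to 83, positive calls from 8 to 77, weaker genes from 11 to 39, stronger genes from 1 to 11, responding genes from 578 to 609, equal genes from 267 to 292 and the median difference along the response from −0.12 to −0.077. Total calls were 22, 35 and 35 without wt-GR TGFβ1 replicates 1, 2 and 3, 50, 26 and 160 without wt-GR vehicle replicates 1, 2 and 3, 36, 37 and 36 without the S134A-GR vehicle libraries, and 57, 50 and 46 without the S134A-GR TGFβ1 libraries. Libraries with the same replicate number did not deviate together from their group means (18 pairs, r from −0.10 to 0.13). With 3 libraries a group this cannot exclude that equal numbers mark libraries handled as a set. With a replicate block the negative calls were 29 and the positive 27, and 51 of the 74 genes were called. The 74 called genes kept their sign in all 21 refits, while 37 of the 178 uncalled genes among the 252 named or listed changed sign in at least 1. The call was lost in 457 and gained in 43 refits of the 252 genes, and list medians moved by more than the replicate spread in 11 refits and by less in 901. At 3 libraries a group an uncalled gene is not shown to respond alike unless its interval is bounded.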
